A study of Mus musculus with 64 samples.

Results

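Glutathione S-transferases are the phase II enzymes that join the tripeptide glutathione to electrophilic drugs, carcinogens and products of lipid peroxidation. The soluble enzymes are dimers sorted by sequence into classes, of which the alpha, mu, pi, theta and zeta classes are represented here, and the liver is a principal site of their expression. Many of their genes lie in clusters of recent duplicates, and the transcription factor NRF2, held in check by KEAP1, is a known regulator of several of them. The mRNAs of 10 such genes (Gstp1, Gstp2, Gsta2, Gsta3, Gsta4, Gstm1, Gstm2, Gstm3, Gstt1 and Gstz1) are described here, found by symbol among the 23338 genes of the count files. They were chosen by earlier results of these same counts, namely the levels across stages and the differences between male and female livers. The values of the 10 genes across stages and by gender in liver are therefore given as a description without a test. Tests are given for gender in embryos and ES cells, which the selection is taken not to have used, and for related genes outside the 10.

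The 64 libraries were made from C57BL/6 J mice without any treatment or genetic modification. There were single eight-cell embryos (6 male, 6 female), embryonic stem (ES) cell lines derived from such embryos and kept in medium with 2 kinase inhibitors and LIF (2 male, 2 female), livers of late-gestation fetuses (12 male, 12 female) and livers of adults aged 15 to 20 weeks (12 male, 12 female). Each ES library was 1 line, so a difference between genders rests on 2 lines against 2. Embryo libraries came from an amplifying single-cell protocol, whereas the others came from a total RNA kit, so in any comparison of embryos with the rest the protocol and the stage cannot be told apart. Reads assigned to genes ranged from 1567583 to 4757610 per library in adult liver, from 5145371 to 8499603 in fetal liver, from 4659656 to 7725432 in embryos and from 9857929 to 10386931 in ES cells. Levels are counts per 1000000 reads on genes (CPM), and 3 reads, taken as the limit that a count of 0 allows, equal 0.631 to 1.91 CPM in adult liver. The labels do not say that each library was a separate animal, so errors and p-values measure the spread between these libraries. The study's methods state that the embryos came from several litters. The labels do not give the litter, so the tests of embryos take no account of it. Hepatocyte markers such as Alb were present in every fetal and adult liver (summed level over 8 genes 43680 to 84661 CPM) and the pluripotency list was highest in the ES lines (2883 to 3423 CPM). Fetal livers also held erythroid and neutrophil transcripts, as a haematopoietic organ does. As these are bulk tissues, fewer cells of a type and less RNA per cell cannot be told apart.

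Gstp1 and Gstp2 encode the pi class, whose enzyme conjugates many electrophiles and is known to bind the stress kinase JNK. The genes lie side by side on the minus strand of chromosome 19 (GRCm38, chr19:4035407-4037985 for Gstp1 and chr19:4040285-4046023 for Gstp2), each with 7 exons in the transcript used, and 752 of 786 aligned bases (95.7%) of their mature transcripts were identical. The counts of both were higher in adult males than in adult females, those of Gstp2 with the limit given below. Their promoters are therefore shown, from 250 bases before to 50 bases after the RefSeq start. Capitals mark the motifs TGAGTCA (the AP-1 site), GGGCGG (the GC box) and TATAA, searched on both strands, where TATAA on the opposite strands overlaps to give TTATAA.
Gstp1 promoter, GRCm38.p6 chr19:4037863-4038162, minus strand: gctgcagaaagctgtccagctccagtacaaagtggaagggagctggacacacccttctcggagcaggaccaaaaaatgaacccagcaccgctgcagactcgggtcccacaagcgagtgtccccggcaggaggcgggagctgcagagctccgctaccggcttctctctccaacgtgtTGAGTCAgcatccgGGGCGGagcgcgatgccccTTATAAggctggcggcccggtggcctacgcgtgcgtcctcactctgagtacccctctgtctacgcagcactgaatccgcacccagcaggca
Gstp2 promoter, GRCm38.p6 chr19:4042172-4042471, minus strand: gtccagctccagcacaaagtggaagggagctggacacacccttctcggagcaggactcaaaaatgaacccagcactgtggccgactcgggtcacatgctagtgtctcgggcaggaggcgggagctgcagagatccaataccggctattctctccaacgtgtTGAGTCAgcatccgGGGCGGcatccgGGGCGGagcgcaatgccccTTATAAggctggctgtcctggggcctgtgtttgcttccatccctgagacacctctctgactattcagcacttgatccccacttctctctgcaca
Within these windows 243 of 282 aligned bases (86.2%) were identical. TGAGTCA spans -74 to -68 in Gstp1 and -89 to -83 in Gstp2, counted from the start at 0, and was found in 5.2% of the 32851 promoter windows of the same length in the reference. TATAA was found in both windows and in 24.9% of all windows. GGGCGG, in 35.7% of all windows, occurs once in Gstp1 (-60 to -55) and again in a tandem repeat in Gstp2 (-75 to -70 and -63 to -58). The spaced motif TGACNNNGC, a core of the antioxidant response element (12.4% of all windows), and the STAT-type motif TTCNNNGAA (8.30%) were in neither window, and of the 9 members with a RefSeq promoter TGACNNNGC was in that of Gsta3 (-121 to -113). In both Gstp windows TGAGTCA is followed by gc, which spells TGACNNNGC except for G in place of the C. The absence of an exact motif therefore does not exclude a related element. These matches describe letters and not sites of binding.

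Gstp1 had the largest separation of males from females among the 10 genes in adult liver. In adult males Gstp1 ranged from 772 to 1132 CPM (median 877, mean 918 ± 136 SD, n = 12), and in adult females from 85.5 to 162 CPM (median 114, mean 114 ± 19.8 SD, n = 12). The lowest male lay far above the highest female. The fitted difference was 3.0 ± 0.09 (SE) on the log2 scale, or 7.97-fold. In fetal liver the order was slightly turned, with 99.8 to 125 CPM in males (median 110, mean 110 ± 6.78) and 100 to 128 CPM in females (median 123, mean 119 ± 9.29), a log2 difference of -0.12 ± 0.05 with overlapping ranges. In CPM, adult females thus lay near the level of both fetal groups, while adult males stood apart from all of them. The fit across both livers, given below, scales libraries otherwise and sets adult livers higher against fetal ones than CPM do. The 2 male ES lines had 98.1 and 83.2 CPM and the 2 female lines 88.5 and 83.9 CPM. Embryos ranged from 27.4 to 106 CPM in males (median 70.4) and from 36.6 to 112 CPM in females (median 57.7). Outside adult males, therefore, group means of Gstp1 lay between 64.5 and 119 CPM.

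Gstp2 followed another course across stages, being abundant in embryos and ES cells and low in liver, close to the detection limit in fetuses and adult females. The male ES lines had 98.2 and 121 CPM and the female lines 107 and 123 CPM, with overlap between genders. Embryos ranged from 25.5 to 79.9 CPM in males (median 31.7) and from 22.4 to 94.2 CPM in females (median 25.8). Fetal livers had 0.866 to 2.64 CPM in males (median 1.23) and 0.964 to 3.91 CPM in females (median 1.81). Adult males had 3.27 to 16.2 CPM (median 9.22, mean 9.22 ± 3.59) and adult females 0 to 3.71 CPM (median 2.17, mean 1.97 ± 1.33), where 2 female libraries had no read. All but 1 adult male lay above every adult female, and the log2 difference was 2.04 ± 0.30. In fetal liver it was -0.53 ± 0.19. The adult values rest on few reads, 63 over the 12 female and 335 over the 12 male livers, beside 33426 of Gstp1 in the males. Gstp2 shares 481 windows of 50 bases with Gstp1. Whether Gstp1 reads counted as Gstp2 had a part in its adult difference was not tested.

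Set side by side, the pair changed places between pluripotent cells and liver. Gstp2 took 50% and 59.3% of the reads on the pair in the male ES lines and 54.7% and 59.5% in the female lines. In embryos its share was 37.1% ± 8.61 (SD, n = 6) in males and 35.9% ± 6.15 in females. In fetal liver it was 1.19% ± 0.42 in males and 1.60% ± 0.55 in females (n = 12 each), and in adult liver 0.995% ± 0.364 in males and 1.64% ± 1.08 in females. The ranges of embryos (26.5 to 49.3%), ES lines and livers (0 to 3.03%) did not overlap. The counts left out alignments to several places in the genome. Of the 50-base windows along the transcript, 62.3% in Gstp1 and 72.6% in Gstp2 recur in another annotated gene, namely the partner gene or the processed pseudogene Gstp-ps, so part of the reads of either gene could go uncounted or be exchanged. Both genes share 481 windows.

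**Figure D1:**
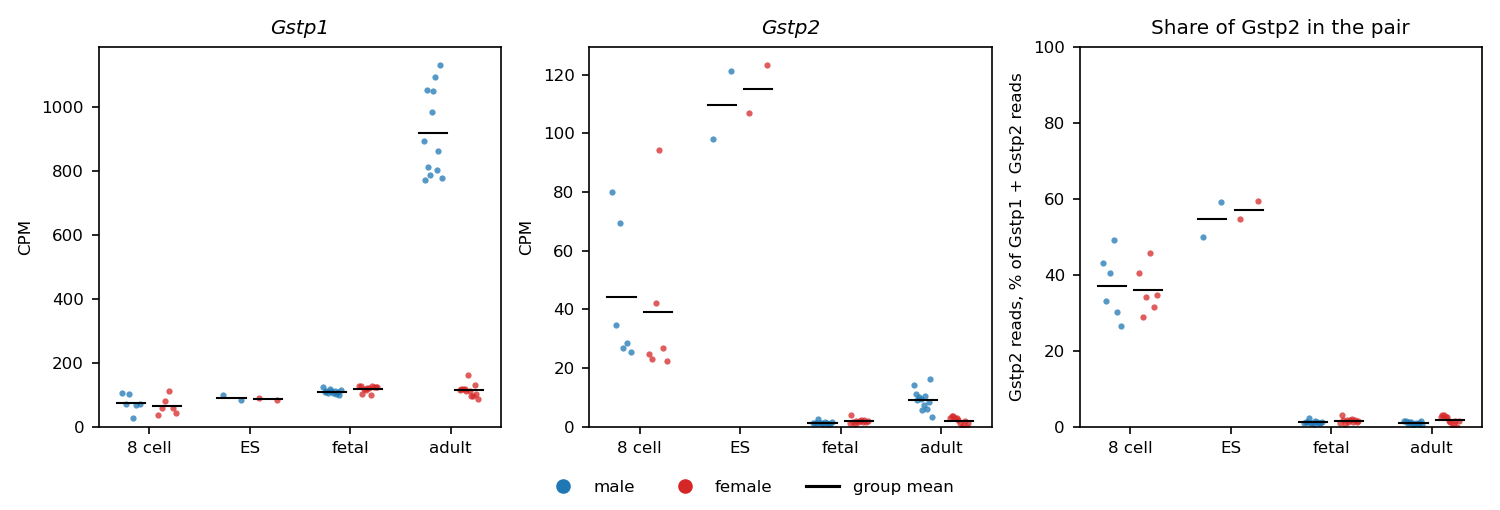
Gstp1 (left) and Gstp2 (middle) in CPM and the percentage of reads on the pair that belonged to Gstp2 (right), by stage; each point is a library (blue male, red female) and black bars are group means. Adult males sit between 772 and 1132 CPM of Gstp1 and adult females between 85.5 and 162, and Gstp2 holds 50 to 59.5% of the pair in ES lines against 0 to 3.03% in livers.

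The alpha class enzymes act on lipid peroxides and reactive aldehydes. Gsta3, whose enzyme detoxifies the epoxide of aflatoxin B1 in mice, was the most abundant of the 10 per transcript length in adult females (1025 ± 185 CPM per kilobase) and, after Gstp1 (1118 ± 165), in adult males (998 ± 51.4), the last pair lying within their spread. These values divide by the full transcript length, though 62.3% of the windows of Gstp1 recur in another gene, so Gstp1 may be higher than counted. Gsta3 lies at chr1:21240589-21265661 and shares no 50-base window with another gene. Gsta3 ranged from 1331 to 1569 CPM in adult males (median 1468) and from 1129 to 1908 CPM in adult females (median 1573). The female range enclosed the male range, and the female coefficient of variation was 18.1% against 5.16% in males. Fetal males had 332 to 487 CPM (median 396) and fetal females 401 to 476 CPM (median 445). The ES lines had 11.6 to 14.5 CPM, and no embryo had more than 3 reads. The 4 stages did not overlap. The log2 difference of males from females was -0.05 ± 0.08 in adult and -0.14 ± 0.05 in fetal liver.

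Gsta4, which conjugates the lipid aldehyde 4-hydroxynonenal, was highest in ES cells, unlike the other alpha genes. The male lines had 419 and 426 CPM and the female lines 424 and 401 CPM. Per kilobase of full transcript, Gsta4 led the 10 genes there by the reads counted. Of the windows of Gstp2, next in rank, 72.6% recur in another gene, so this order is uncertain. In CPM, adult livers followed, with 58.0 to 98.0 in males (median 70.5) and 61.7 to 97.2 in females (median 73.9). Fetal livers had 24 to 41.4 CPM in males (median 30.9) and 27.7 to 39.7 CPM in females (median 33.3), and embryos spread from 1.05 to 49.3 CPM across both genders. ES lines, adult livers and fetal livers did not overlap, whereas embryos and fetal livers did. The log2 difference by gender was -0.08 ± 0.09 in adult and -0.16 ± 0.08 in fetal liver.

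Gsta2 was an adult liver transcript with a patchy earlier presence. It lies at chr9:78331018-78355788, and 64.2% of its windows recur in Gsta1 or in predicted neighbours, so its level is uncertain. Adult males had 15.2 to 45.9 CPM (median 19.5) and adult females 8.41 to 35.1 CPM (median 16.6), a log2 difference of 0.21 ± 0.22. Embryos had 0 to 23.2 CPM (median 3.88), with 1 male and 1 female embryo without a read. ES lines had at most 2 reads each. In 23 of 24 fetal livers Gsta2 was between 0 and 0.37 CPM, which is at most 2 reads. The remaining fetal liver, female 14, had 89 reads or 12.9 CPM.

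That library stood apart in other respects. Over 8 intestinal epithelial genes, listed after the values were seen, it had 1200 CPM against 4.50 to 11.2 CPM in the other fetal livers, and all 8 lay above the other 23. For example Fabp2, the intestinal fatty acid binding protein, had 540 CPM against 2.25 to 5.26, and Cdx2, the intestinal homeobox factor, 24.8 against 0 to 0.182. The cholangiocyte list was also highest there (426 CPM against 31.6 to 150.3). Beside Gsta2, the members Gstm3 (17.1 CPM against 1.73 to 5.52), Gstm2 (18.4 against 4.88 to 11), Gstp2 (3.91 against 0.866 to 2.64) and, by a narrow margin, Gstp1 (127.5 against 99.8 to 127.4) were highest there. Gsta3, Gsta4, Gstm1, Gstt1 and Gstz1 lay within the range of the other livers. Without it the fetal log2 differences became -0.39 ± 0.17 for Gstp2, -0.29 ± 0.11 for Gstm2 and -0.03 ± 0.17 for Gstm3, and no member passed the call thresholds. Female 14 was also among 5 fetal livers (males 11 and 12, females 14, 15 and 24) in which pancreatic acinar genes summed to 120 to 847 CPM against at most 37.8 in the others.

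**Figure D2:**
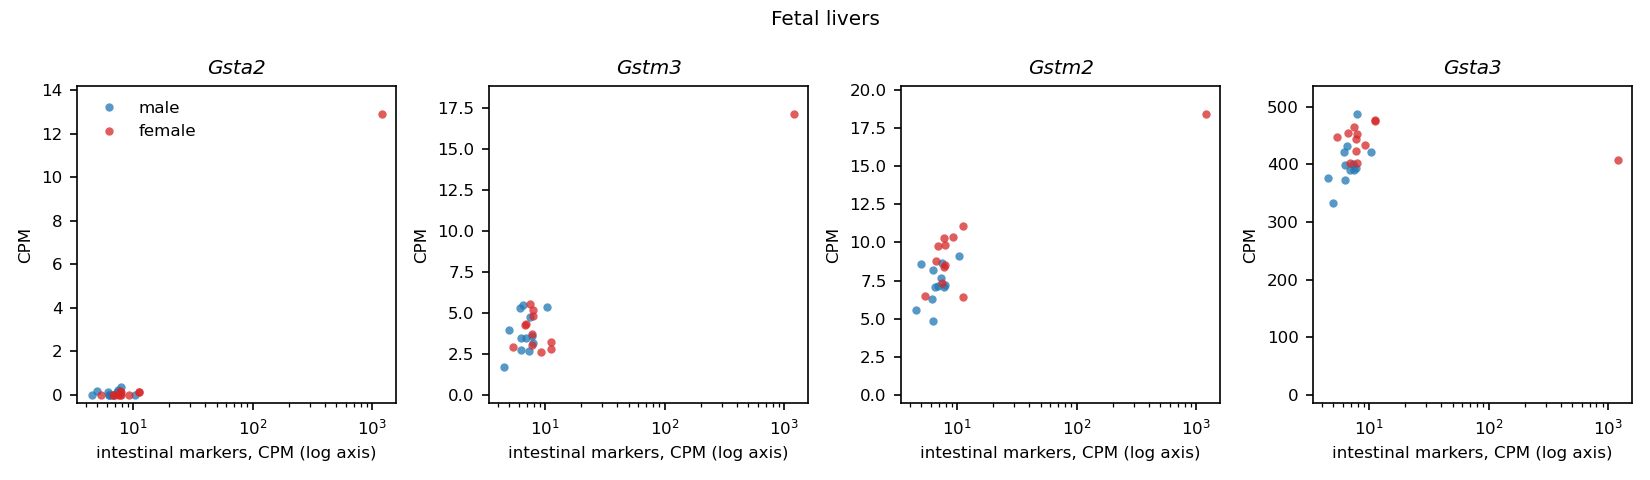
CPM of Gsta2, Gstm3, Gstm2 and Gsta3 in the 24 fetal livers (vertical axes) against the summed level of 8 intestinal genes (horizontal log axis); each point is a library (blue male, red female). Female 14 lies alone at 1200 CPM of intestinal genes, with 12.9 CPM of Gsta2, 17.1 of Gstm3 and 18.4 of Gstm2, while its Gsta3 (407) is within the other livers.

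The mu class genes Gstm1, Gstm2 and Gstm3 form a cluster on the minus strand of chromosome 3 (chr3:107963696-108017973 from the end of Gstm3 to the start of Gstm1). The transcripts of Gstm1 and Gstm3 were 87.6% identical and those of Gstm1 and Gstm2 79.0%, and 23.1%, 9.36% and 28.8% of the windows of Gstm1, Gstm2 and Gstm3 recur in another gene or pseudogene. Gstm1 had 614 to 837 CPM in adult males (median 771) and 614 to 904 CPM in adult females (median 755), with a log2 difference of -0.01 ± 0.07. Fetal livers had 120 to 169 CPM in males (median 139) and 130 to 160 CPM in females (median 144), and ES lines had 48.3 to 52.9 CPM. The adult, fetal and ES ranges of Gstm1 were separate, and no embryo had more than 3 reads.

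Gstm2 differed from Gstm1 in being higher in adult females. Adult males had 29.2 to 45.4 CPM (median 41.4, mean 39.0 ± 5.67) and adult females 42.7 to 73.8 CPM (median 60.0, mean 60.4 ± 10.4). In that comparison 11 of 12 females lay above every male, and the log2 difference was -0.64 ± 0.09, or 1.55-fold in favour of females. Fetal livers had 4.88 to 9.11 CPM in males (median 7.16) and 6.41 to 18.4 CPM in females (median 9.28), a log2 difference of -0.41 ± 0.13 in which female 14 is the highest value. The ES lines, at 40.1 and 39.5 CPM in males and 38.3 and 33.9 CPM in females, overlapped the adult livers.

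Gstm3 was at 19.1 to 41.6 CPM in adult males (median 33.0) and 19.6 to 38.8 CPM in adult females (median 26.7), a log2 difference of 0.22 ± 0.13. Fetal livers had 1.73 to 5.46 CPM in males (median 3.55) and 2.59 to 17.1 CPM in females (median 3.97). No read fell on Gstm3 in any of the 12 embryos, which at 3 reads allows up to 0.388 to 0.644 CPM. The male ES lines had 8.38 and 6.41 CPM and the female lines 3.60 and 3.55 CPM.

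Gstt1, of the theta class that acts on small halogenated compounds, and Gstz1, the zeta class enzyme that isomerises maleylacetoacetate in tyrosine breakdown, were liver transcripts. Gstt1 (chr10:75783813-75798584) had 180 to 285 CPM in adult males (median 226, mean 226 ± 32.3) and 256 to 361 CPM in adult females (median 314, mean 306 ± 36.8). Of the males 10 lay below every female, and the log2 difference was -0.45 ± 0.07. In fetal liver Gstt1 had 169 to 215 CPM in males (median 196, mean 197 ± 11.9) and 196 to 271 CPM in females (median 230, mean 232 ± 21.3), where 10 of 12 females lay above every male and the log2 difference was -0.24 ± 0.05. Gstt1 was thus lower in males in both livers, and fetal and adult ranges overlapped. The male ES lines had 11 and 8 reads of Gstt1 (1.06 and 0.778 CPM), the female lines none (allowing up to 0.300 and 0.304 CPM), and the embryos none.

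Gstz1 (chr12:87147165-87164723) had 615 to 784 CPM in adult males (median 704) and 640 to 896 CPM in adult females (median 763), and the log2 difference was -0.16 ± 0.06. Fetal livers had 191 to 240 CPM in males (median 212) and 194 to 241 CPM in females (median 225), with a log2 difference of -0.09 ± 0.04. The male ES lines had 16.7 and 17 CPM, and the female lines 12.8 and 10.8 CPM. In embryos the median was 0 and the highest value 6.19 CPM. Along Gstz1, 4.85% of the windows coincide with the neighbouring gene Pomt2, and the sources used here do not state whether counting used strand.

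**Figure D3:**
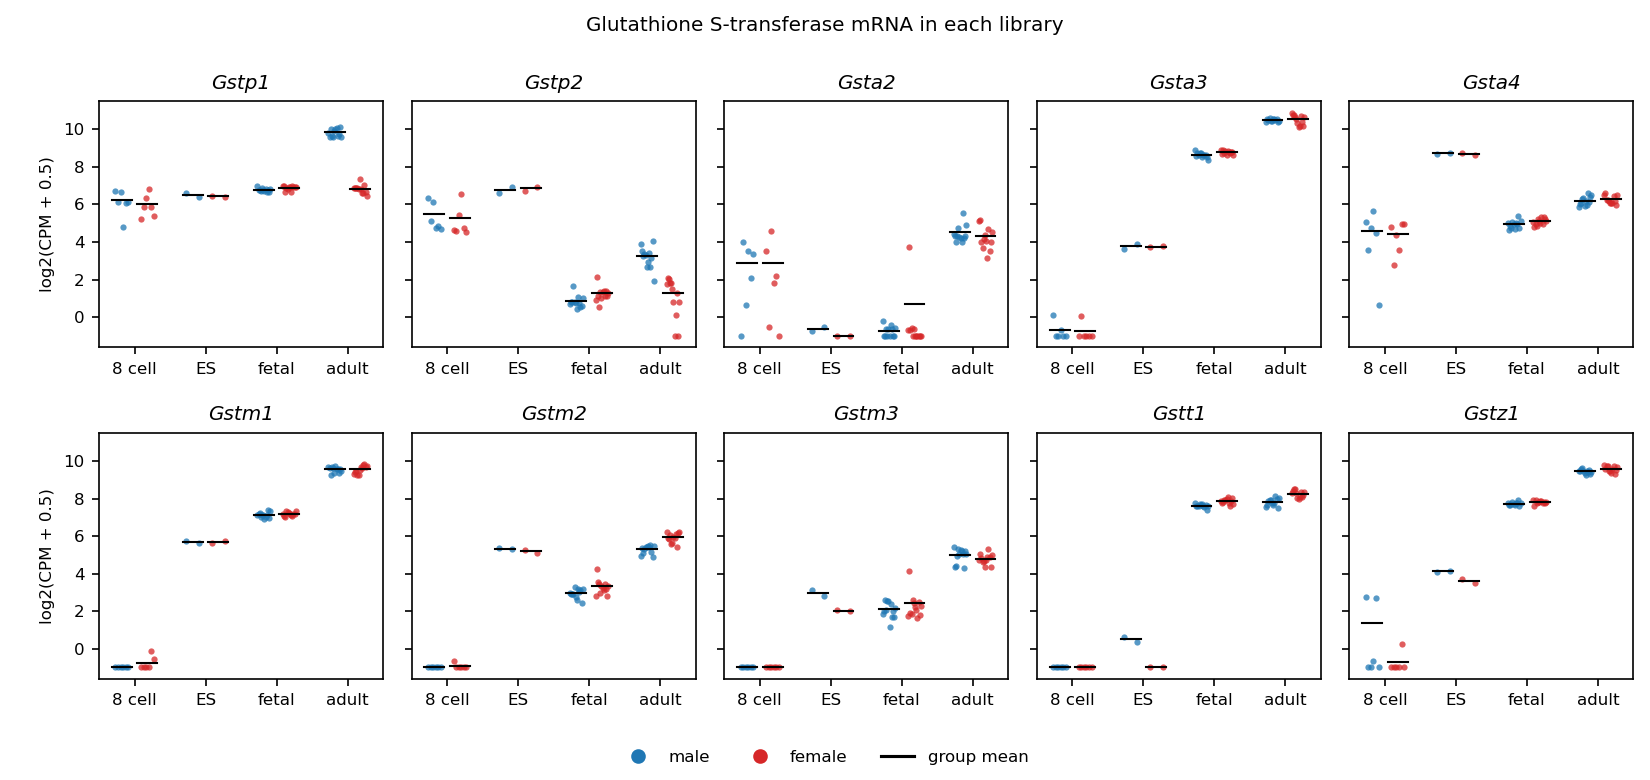
Level of the 10 genes in each of the 64 libraries as log2(CPM + 0.5), by stage, with males in blue, females in red and the group mean as a black bar. Gstp1 stands apart in adult males alone (772 to 1132 CPM). Gsta3, Gsta4, Gstm1, Gstm2, Gstm3 and Gstz1 have separate fetal and adult ranges, in a contrast where 67.1% of genes tested were called. Gsta4 and Gstp2 are highest in ES lines.

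Across stages, the summed level of the 10 genes was 151 ± 49.2 CPM in male and 132 ± 52.1 CPM in female embryos (n = 6), 751 ± 8.20 and 728 ± 9.0 CPM in ES lines (n = 2), 1103 ± 62.8 and 1211 ± 41.6 CPM in fetal liver and 4223 ± 135 and 3622 ± 357 CPM in adult liver (n = 12). In adult liver Gstp1 made up 21.7% ± 2.94 of this sum in males and 3.19% ± 0.71 in females. Without Gstp1 the adult sum was 3305 ± 141 CPM in males and 3508 ± 362 CPM in females. The adult minus fetal difference, with genders weighted equally, was 0.87 ± 0.05 on the log2 scale for Gstt1, 1.80 ± 0.06 for Gsta4, 2.32 ± 0.04 for Gstz1, 2.38 ± 0.05 for Gsta3, 2.97 ± 0.05 for Gstm1, 3.10 ± 0.08 for Gstm2 and 3.32 ± 0.15 for Gstm3. These fitted values use TMM factors, which CPM do not, so fitted and CPM ratios between stages differ. For Gstt1 the fit gave 1.82-fold and the mean CPM 1.24-fold. For Gstp1 (2.07 ± 0.05) and Gstp2 (2.00 ± 0.20) the fitted value averages a large male and a small female part. For Gsta2 no fold is given, as nearly all fetal libraries had 2 reads or fewer. The 10 genes were past the call thresholds (adjusted p under 0.1 and absolute log2 above 0.5) in this contrast, where 67.1% of the 13026 genes tested were called and 31.7% of the 13026 were called higher in adult liver. As the selection used this contrast, nothing is read from that count or from ranges that did not overlap between stages. The share of all genes with such separate ranges between stages was not computed.

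By gender in adult liver, 3 of the 10 genes were past the same thresholds, Gstp1 and Gstp2 higher in males (3.01% of 10372 genes tested were called in that direction) and Gstm2 higher in females (6.48%), with 9.49% called in either direction. Gstp1 was the member whose male and female ranges did not overlap, as was so for 2.80% of genes. In fetal liver 9 genes passed the filter on low counts, Gsta2 being left out. The 9 estimates were below 0, with a median of -0.16 against -0.03 over the 12930 genes tested. Among all genes 56.6% were below 0, and Gstp2 was past the thresholds (0.828% of genes were called higher in females, 3.81% higher in males and 4.64% in either direction). No member had separate ranges in fetal liver, where 1.96% of genes did. These counts used the contrasts of the selection and are a description.

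**Figure D4:**
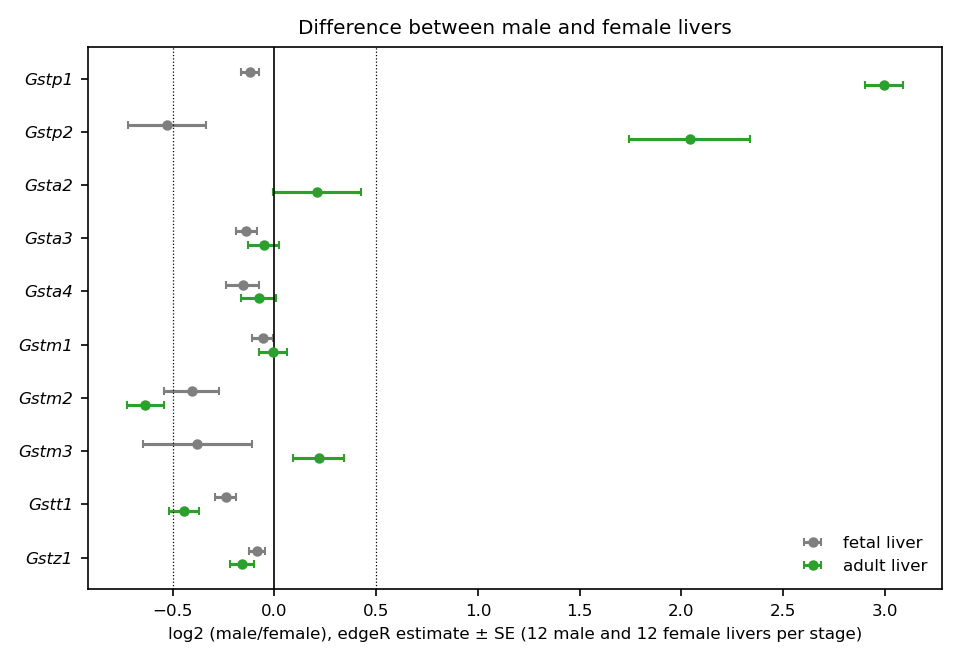
Difference between 12 male and 12 female livers for each gene as log2 (male/female) with its standard error, fetal livers in grey and adult livers in green; dotted lines mark ± 0.5, and Gsta2 has no fetal estimate. Gstp1 (3.0) and Gstp2 (2.04) lie far to the right in adult liver, whereas the 9 fetal estimates lie below 0.

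Other measures moved with these differences. In fetal liver the share of reads that fell outside annotated genes was 39.9 to 49.0% in males and 34.1 to 38.1% in females, without overlap, so this property of the libraries and gender cannot be told apart. With that share in the model the fetal log2 differences became 0.05 ± 0.09 for Gstp1, 0.17 ± 0.10 for Gstm1, 0.35 ± 0.59 for Gstm3 and -0.03 ± 0.10 for Gstt1. The other 5 stayed below 0, at -0.14 ± 0.11 for Gsta3, -0.21 ± 0.43 for Gstp2, -0.15 ± 0.29 for Gstm2, -0.05 ± 0.17 for Gsta4 and -0.03 ± 0.08 for Gstz1, so 6 of 9 kept their sign. Over all genes the calls in fetal liver went from 600 to 9 with this term. In adult liver the share overlapped between genders (28.0 to 35.2% and 25.7 to 36.6%), and Gstp1 kept a log2 difference of 3.02 ± 0.09 with it in the model. Within the adult livers of at least 2000000 reads (9 male, 8 female) Gstp1 differed by 2.86 ± 0.10 and Gstp2 by 1.68 ± 0.30, and within the shallower ones (3 male, 4 female) by 3.34 ± 0.14 and 3.83 ± 0.55. Alignments to several places amounted to 1.09 to 2.26 per read on genes in adult males and 0.703 to 1.17 in adult females. The erythroid list was higher in adult males (160 to 198 CPM against 15 to 44.4 over 9 genes). Nearly all of it was Alas2, the enzyme of haem synthesis. The 4 globin genes in the counts were at 0 in both genders. Hba-a1 was also at 0 in the fetal female livers, where the list summed to 4390 to 6444 CPM. A globin count of 0 therefore does not show that red cells were absent. Summed hepatocyte markers overlapped (63089 to 80147 CPM in males and 71630 to 84661 in females). Markers of sinusoidal endothelium were lower in adult males (419 to 469 CPM) than in females (468 to 586) with a bare overlap, and macrophage markers had a median of 408 CPM in males (309 to 573) and 540 CPM in females (417 to 903). The part of these measures in the differences was not tested.

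The contrast by gender in embryos and ES cells was taken as not used to select the genes. In the 12 embryos 4 of the 10 genes passed the filter, and none was called by edgeR's quasi-likelihood test or by DESeq2 (0 at an unadjusted p under 0.05), against 0.264% of 9087 genes. The log2 differences of males from females were 0.14 ± 0.33 for Gstp1, 0.12 ± 0.43 for Gstp2, 0.10 ± 0.61 for Gsta4 and -0.09 ± 1.24 for Gsta2, each with an adjusted p of 1.00. With such errors, differences of the size of that of Gstm2 in adult liver were not detectable. In the ES lines 8 genes passed and 1 was called, against 9.50% of 12678 genes. Gstm3 was higher in the male lines by 1.01 ± 0.27 on the log2 scale (edgeR adjusted p = 0.0969), but not by DESeq2 (adjusted p = 0.250). Leaving out either female line left no call among all genes tested, so it gives no check of Gstm3. Gstz1 differed by 0.48 ± 0.18 (adjusted p = 0.179), and the estimates of the other 6 lay between -0.11 and 0.10 (adjusted p 0.634 to 0.989). Gstp1, in particular, differed by 0.04 ± 0.12 in ES lines.

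Within a gender, each gene was also compared with all others tested, by Pearson's r of log2 CPM centred within gender over 24 livers (a description in which depth and handling are shared). The nearest genes of Gstp1 in adult liver were Eef1a1 (r = 0.89), a translation elongation factor, and Rps15a (0.78), a ribosomal protein. Those of Gstz1 were Mut (0.90), the methylmalonyl-CoA mutase, and Gpt2 (0.86), an alanine aminotransferase. Gsta3 was nearest to the superoxide dismutase Sod1 (0.87) and Gcdh (0.86). Gstt1 was nearest to Thrsp (0.83), a lipogenic protein, and Trim41 (0.82). The others were Wipi2 (0.80) and Eif4b (0.79) for Gstp2, Wdr43 (0.84) and Ndufaf4 (0.76) for Gsta2, Tcn2 (0.79) and Xdh (0.72) for Gsta4, Gapdh (0.77) and Tyms (0.72) for Gstm1, Ttc33 (0.74) and Senp8 (0.73) for Gstm2, and Rbl1 (0.65) and Mfsd7b (0.60) for Gstm3.

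In fetal liver the nearest genes of the 9 members tested were different ones. Gstz1 lay nearest to Aldh8a1 (0.82) and Kmo (0.79), the latter an enzyme of tryptophan breakdown. Nrn1 (0.82) was among the nearest genes of Gsta3. For Gstm3 they were Gipc2 (0.85) and Sema3b (0.83), which became 0.67 and 0.58 without female 14. The others were Snora61 (0.75) and Nop2 (0.72) for Gstp1, Nlrc4 (0.69, or 0.50 without female 14) and 2310004N24Rik (0.68) for Gstp2, Tfdp1 and Arrb1 (both 0.83) for Gsta4, Fbl and Kif2c (both 0.81) for Gstm1, Uaca and Pik3r2 (both 0.79) for Gstm2, and Ldha (0.77) and Hsd17b10 (0.74) for Gstt1. Without female 14, Uaca and Pik3r2 were at 0.67 for Gstm2, Kmo at 0.65 for Gstz1 and 2310004N24Rik at 0.60 for Gstp2. Other nearest genes, apart from those already given without it, moved less. Among the members, Gsta3 and Gstz1 varied together in adult liver (r = 0.71), as did Gsta2 and Gsta4 (0.72). Gstp1 and Gstm2 had the lowest r of the member pairs in adult liver (-0.47), close to that of Gstm1 and Gstt1 (-0.44). In fetal liver the r of Gstp1 and Gstm2 was 0.13. The naming rule did not cover these pairs of members.

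A list of 18 related genes, called other transferases here, was tested by gender with edgeR and Benjamini-Hochberg adjustment over all genes. It also holds genes outside the soluble classes, such as the Mgst genes, Alox5ap and Ptges. Not all of its genes encode glutathione transferases. In adult liver 10 passed the filter and 3 were called, all higher in females, where 9.49% of all genes were called and 6.48% were called higher in females, with a median log2 difference of -0.37 against 0.00 over all genes. Mgst3, a microsomal enzyme with glutathione peroxidase activity, had 5.59 to 13.1 CPM in males (median 9.26) and 15.8 to 29.6 CPM in females (median 22.2), without overlap (log2 difference -1.27 ± 0.12, adjusted p = 6.72e-10). Gstt3, the neighbour of Gstt1 on chromosome 10, had 26.3 to 74.7 CPM in males (median 45.5) and 67.6 to 159 CPM in females (median 119), a log2 difference of -1.31 ± 0.16 (adjusted p = 5.84e-07). Gsto1, named after its values were seen, was the third (-0.53 ± 0.06, adjusted p = 2e-08). DESeq2, run without that filter, called 6 in adult liver. Of these Gsta1, also named after its values were seen, was higher in males and the rest in females. In fetal liver 14 passed the filter and none was called by edgeR or DESeq2, where 4.64% of all genes were. Of the 14, 5 had an unadjusted p under 0.05, each lower in males, against 40.5% of all genes. The smallest adjusted p were those of Gstt2 (-0.30 ± 0.06, adjusted p = 0.000411) and Mgst3 (-0.28 ± 0.07, adjusted p = 0.00361). The list's median was -0.11. With the share of reads outside genes in the model the estimates were -0.13 ± 0.13 for Gstt2 and 0.01 ± 0.14 for Mgst3 (adjusted p = 0.982 and 0.995).

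Between stages, the 14 other genes tested were all called, 8 higher and 6 lower in adult liver, in a contrast with 67.1% of genes called. With the size factors of DESeq2's median ratio, which moved the median of all genes from -0.05 to -0.14, the call of Gstm7 was lost and 13 were called. Gstk1, Gstm4, Gstm6, Gstm7, Gsto1, Gstt2, Gstt3 and Mgst1 were higher, and Alox5ap, Gstm5, Hpgds, Mgst2, Mgst3 and Ptges lower, so that within the mu cluster Gstm5 went against its neighbours. Alox5ap, Hpgds, Mgst2 and Ptges passed the filter through fetal liver alone, where they are high, so the filter had a part in their direction. Gstt3 rose by 3.03 ± 0.10 and Gstt2 by 1.64 ± 0.08, whereas Mgst3 fell by 2.54 on the log2 scale. The gender gap differed between the 2 livers for 3 of the 14 genes (13.7% of 13026 genes), by the interaction term of the same model. The male minus female difference was lower in adult than in fetal liver for Mgst3 (-0.94 ± 0.14, adjusted p = 8.6e-07) and Gstt3 (-0.89 ± 0.19, adjusted p = 0.000541). The third, Alox5ap (-0.86 ± 0.33, adjusted p = 0.0448), named after its values were seen, did not pass the filter in adult liver, where it had 48 reads over the males and 64 over the females.

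Genes that make, recycle or export glutathione and its conjugates were tested as a list of 36. In adult liver 26 passed the filter and 3 were called, all higher in females, a share near the 9.49% of all genes called (6.48% higher in females), and the list's median was 0.10. Abcc4, a conjugate exporter, had 1.86 to 6.73 CPM in males (median 5.46) and 4.39 to 14.5 CPM in females (median 8.96), a log2 difference of -0.73 ± 0.16 (adjusted p = 0.000999). The others, named after their values were seen, were Ggct of the gamma-glutamyl cycle (-0.91 ± 0.15, adjusted p = 1.36e-05) and G6pdx, which supplies NADPH (-0.62 ± 0.19, adjusted p = 0.0167). The smallest adjusted p belonged to changes below the fold threshold, both higher in males. Glo1, the glyoxalase that uses glutathione, had 638 to 747 CPM in males (median 662) and 427 to 582 CPM in females (median 498), without overlap (0.43 ± 0.05, adjusted p = 2.42e-08). The aminopeptidase Lap3 had 399 to 516 CPM in males (median 454) and 275 to 404 CPM in females (median 340; 0.41 ± 0.06, adjusted p = 9.8e-06). In fetal liver 31 passed and edgeR called none (4.64% of all genes), while DESeq2 called 2. An unadjusted p under 0.05 was found for 16 of them and for 40.5% of all genes. Abcc4 was higher in males there (0.34 ± 0.07, adjusted p = 0.000654), and Gpx4, the lipid hydroperoxide peroxidase, lower (-0.25 ± 0.05, adjusted p = 0.000762). With the share of reads outside genes in the model they were 0.24 ± 0.15 and 0.07 ± 0.09 (adjusted p = 0.937 and 0.991).

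Of 18 genes of the NRF2 pathway, 16 passed the filter in adult liver and 2 were called, both higher in females, a share near the 9.49% of all genes called, while the median was 0.07. By the adjusted p alone (under 0.1) 6 were higher in males and 3 in females. Over all genes 32.8% passed at that threshold, 1563 higher in males and 1837 higher in females. Nqo1, a quinone reductase and standard NRF2 target, had 5.59 to 10.7 CPM in males (median 7.83) and 12.5 to 34.8 CPM in females (median 20.3), without overlap (-1.41 ± 0.16, adjusted p = 2.33e-08). Cbr1, a carbonyl reductase, had 39.0 to 58.1 CPM in males (median 45.0) and 60.1 to 88.5 CPM in females (median 78.5), also without overlap (-0.72 ± 0.07, adjusted p = 9.59e-10). In fetal liver the 18 genes were tested and neither edgeR nor DESeq2 called any, with 10 at an unadjusted p under 0.05 (40.5% of all genes). The smallest adjusted p were those of Cbr1 (-0.30 ± 0.10, adjusted p = 0.0202) and Keap1 (-0.14 ± 0.05, adjusted p = 0.0238). Without female 14 the estimate of Cbr1 was -0.20 ± 0.06 (adjusted p = 0.0123), and with the share of reads outside genes in the model the pair had -0.23 ± 0.21 and -0.04 ± 0.10 (adjusted p = 0.982 and 0.995). Which of these genes respond to NRF2 in these samples was not tested.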

How the data were processed

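The authors made libraries from single embryos by a single-cell amplification protocol and from ES cells and livers with a stranded total RNA kit. Per the submitters' processing notes and the study's methods, reads were aligned to mm10 with TopHat2 2.0.4 and Bowtie2 2.1.0 (SAMtools 0.1.18), duplicates were removed with Picard, and HTSeq counted reads per gene. The deposited files hold these raw counts for 23338 genes. The strand setting is not given in the sources used here. Rows that name no gene were left out of library sizes. Groups were taken from the stage and gender labels. Counts were tested with edgeR 4.0.16 in R 4.3.3 (TMM factors, filterByExpr, robust quasi-likelihood F test, two-sided), with Benjamini-Hochberg adjustment over all genes tested. A call required an adjusted p under 0.1 and an absolute log2 difference above 0.5. Alternatives were DESeq2 1.42.0, its size factors in edgeR, no filter, another threshold, the share of reads outside genes as covariate, deep adult libraries, replicate numbers as a block and leaving out ES lines. Scripts were tested on simulated data. Members and lists were chosen with earlier results of these data known. Of the lists, genes called with an absolute log2 above 1 were named, and otherwise the 2 with the smallest adjusted p in each list and liver. For each member and liver the 2 genes of highest correlation were named, except 1 that is not reported here.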

Additional observations from a re-analysis of the deposited data

Results flagged for a closer look

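Gstp2 in female embryo 10 was 94.2 CPM, far above the other female embryos by Dixon's test at 95%. That test flags about 1 in 20 groups by chance, and 9 gene and group combinations were tested in embryos. Male embryos reached 79.9 CPM, and female embryo 10 also had the highest Gstp1 of all embryos (112 CPM). By the interaction term of the edgeR model, the difference between males and females itself differed between adult and fetal liver for 14 genes of the lists. They were 3 from the list of other transferases, 9 glutathione cycle genes and 2 NRF2 genes, where 13.7% of all genes were called. Of the 14 genes, 10 passed the filter in both livers. Among them the adult minus fetal value on the log2 scale was -0.94 for Mgst3, -0.89 for Gstt3, -1.03 for Abcc4, -0.68 for G6pdx, -0.52 for Ggct and -1.11 for Nqo1. It was 0.63 for Glo1, 0.64 for Glrx5, 0.58 for Lap3 and 0.52 for Oplah. The other 4 passed the filter in 1 liver and rest on few reads in the other, with -0.86 for Alox5ap, -0.87 for Gpx7 and 0.94 for Maff (low in adult liver) and 0.96 for Ggt6 (low in fetal liver). Genes beyond those of the naming rule were named after their values were seen. The share of reads outside genes separated the genders in fetal liver, and its part in these differences was not tested.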

How the results depend on the processing

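Of 81 counts recomputed under an alternative, 55 stayed within 1.5 times the reported count. Among the members, which were not tested, the fetal log2 difference changed sign with the share of reads outside genes as covariate for Gstp1 (0.05), Gstm1 (0.17) and Gstm3 (0.35), and that of Gstm3 also without the 5 livers named below. Adult values near 0 changed sign under 1 of 5 alternatives for Gsta3 and 3 of 5 for Gstm1. At an adjusted p under 0.05 with no fold threshold, the calls were 5 (other transferases), 9 (glutathione cycle) and 3 (NRF2) in fetal liver and 7, 11 and 8 in adult liver, 6 for the interaction, and 4 members in fetal liver, 5 in adult liver and 0 in ES lines. This setting changes both thresholds at once. With no fold threshold, 37.2% of all genes had an adjusted p under 0.1 in fetal liver. The shares were 32.8% in adult liver, 33.7% for the interaction and 11.2% in ES lines. Those under 0.05 are not given here, so nothing is read from these counts. DESeq2 called 2 glutathione cycle genes in fetal liver, 6 other transferases in adult liver and 0 members in ES lines. With no filter the counts were 1 other transferase, 1 glutathione cycle gene and 2 members in fetal liver, and 2 members in ES lines. With the share of reads outside genes as covariate 0 members passed in fetal liver. Leaving out 1 ES line gave 0 to 1 members, 0 without either female line, when no gene at all was called, so these fits say nothing of the members. The next alternatives were chosen after seeing the data. Without fetal female 14, 0 members and 1 glutathione cycle gene passed, and without the 5 fetal livers with acinar genes 0 members, 2 glutathione cycle genes and 1 NRF2 gene. In adult livers under 2000000 reads 1 glutathione cycle gene was called, Glo1, higher in males, and the 3 reported calls were lost. The cause was not tested. With the replicate number as a block, 14 other transferases were called between stages and 3 for the interaction, as without it. Livers of the same number shared only the number (24 pairs, r from -0.09 to 0.04, 1 pairing best with its own number). Adult depth limits Gstp2 most, at 0 to 11 reads per female library.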
